A study of Mus musculus with 65 samples.

Results

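The cytoskeletal motors and tubulins of the mouse spinal cord are described here through 32 genes: 15 kinesins, 11 subunits of cytoplasmic dynein and dynactin, 2 tubulins and 4 myosins. They were taken by symbol, as every feature of the array whose annotation gave a single symbol beginning with Kif, Klc, Dync, Dynl, Dctn, Tuba, Tubb, Tubg or Myo and a following number or letter of the family series. The rule found 36 features, of 8448 on the array, and 32 genes, of 4209 genes with a single symbol. No kinesin light chain (Klc) was among them, and 2 features that carried several symbols, of which at least 1 matched, were left out. The rule uses symbols and no measured value.

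Spinal cord RNA came from 65 C57BL/6 mice, 31 males and 34 females, each hybridised as radiolabelled cDNA to 1 cDNA filter. Mice fed ad libitum (AL), with regular feed throughout, were juveniles aged 17 to 44 days (n = 10), or belonged to the classes of 6 months (169 to 194 days, n = 10), 16 months (476 to 499 days, n = 10) and 24 months (704 to 743 days, n = 10). Mice under caloric restriction (CR) ate regular feed to 13 weeks of age and then fortified feed at 90%, 75% and finally 60% of the regular amount, and were taken in the classes of 6 months (174 to 194 days, n = 8), 16 months (472 to 499 days, n = 10) and 24 months (673 to 743 days, n = 7). The strain was the same in all groups, and no group carried an engineered allele or received a drug. Males and females were 5 and 5 in every AL group and in the CR group of 16 months, 3 and 5 in the CR group of 6 months, and 3 and 4 in the CR group of 24 months. Each mouse gave 1 array, and precision is set by how many arrays a group holds.

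Values are Z scores: the signal of a feature relative to all features of the same array, with a mean of 0 and an SD of 1 on each array. A difference in Z is therefore a shift within the distribution of an array and not a fold change, and the Z score of one gene is not compared with that of another. Differences were taken from limma with both sexes weighted equally, and p-values were adjusted by Benjamini-Hochberg over all 7782 rows of the gene-averaged table. A gene is called when its adjusted p is under 0.05. The tissue was whole spinal cord, so fewer cells of a type and less RNA per cell cannot be told apart.

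Kinesins are ATP-driven motors that mostly walk towards the plus ends of microtubules and carry vesicles, organelles and RNA out along axons, while a set of mitotic kinesins builds and moves the spindle of dividing cells. Cytoplasmic dynein, with its activator dynactin, is the main motor towards minus ends and returns endosomes and survival signals to the cell body. Tubulins form the tracks, and unconventional myosins carry membrane along actin. The long axons of spinal motor neurons make this transport a well studied matter in the cord, and inherited defects of dynein, dynactin and several kinesins are known causes of motor neuron and axon diseases.

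Arrays 31 and 32, both of CR mice of 6 months, and array 33, of an AL male of 6 months, stood apart from the rest over all features. The other arrays formed a set of 41 and a set of 21 along the first principal component of all features, which held 36.0% of the variance without arrays 31 to 33. The array numbers of each set run in stretches, and the sets are called first and second run here. The labels do not name these runs, which were spread unevenly: of the AL mice of 6 months 8 were in the first run and 1 in the second, against 4 and 6 of the AL mice of 24 months, and no CR mouse of 6 months was in the second run. Differences are therefore given also without arrays 31 to 33, with run as a covariate (again without them), and within each run.

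No member was called in any of the 12 comparisons made with limma, neither with all 65 arrays, nor without arrays 31 to 33, nor with run as a covariate. From juvenile to 6 months under AL, 0 of 32 were called against 0.141% of all rows, and 0 of 32 had an unadjusted p under 0.05 against 2.71%. From 6 to 16 months under AL the counts were 0 against 0.0257% and, unadjusted, 7 against 13.3%. From 16 to 24 months under AL they were 0 against 0.0% and 0 against 2.0%. From 6 to 24 months under AL they were 0 against 0.0643% and 5 against 13.0%, and under CR 0 against 0.0257% and 2 against 8.75%.

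For diet, the counts at 6 months were 0 against 0.0257% and, unadjusted, 2 against 7.7%. At 16 months they were 0 against 0.0% and 0 against 0.797%, and at 24 months 0 against 0.0% and 3 against 7.35%. Over the 3 adult ages together they were 0 against 0.0129% and 3 against 10.5%. The difference between diets in the step from 6 to 24 months gave 0 against 0.0% and 1 against 1.54%. Males against females in adults gave 0 against 0.0% and 1 against 3.51%, and the F test over the 7 stage and diet groups gave 0 against 0.206% and 3 against 8.94%. In none of the 10 comparisons of one group with another did any of the 32 genes have groups that did not overlap. The share of all rows with such groups is not given here, so this count does not set the members apart.

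The first steps of the selection in the study's methods were also run here on the same values: mean Z above 0, a z-ratio of at least 1.5 in size, and an unadjusted p under 0.05 from an equal-variance 2-sample test of the groups compared, which differs from the limma p given above. The analysis of variance that the methods apply afterwards was not run. These steps picked 1 member, Kif28, from 6 to 16 months under AL, where they picked 0.938% of rows. They picked 1 member, Dync1li1, from 6 to 24 months under CR, against 3.39% of rows, and Dync1li1 again for CR against AL at 24 months, against 2.0% of rows. They picked no member in the other comparisons, in which they took 0.206% of rows (juvenile to 6 months), 0.861% (16 to 24 months, AL), 1.75% (6 to 24 months, AL), 0.591% and 0.989% (CR at 6 and 16 months), 1.11% (CR over the 3 ages) and 0.463% (sex).

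**Figure D1:**
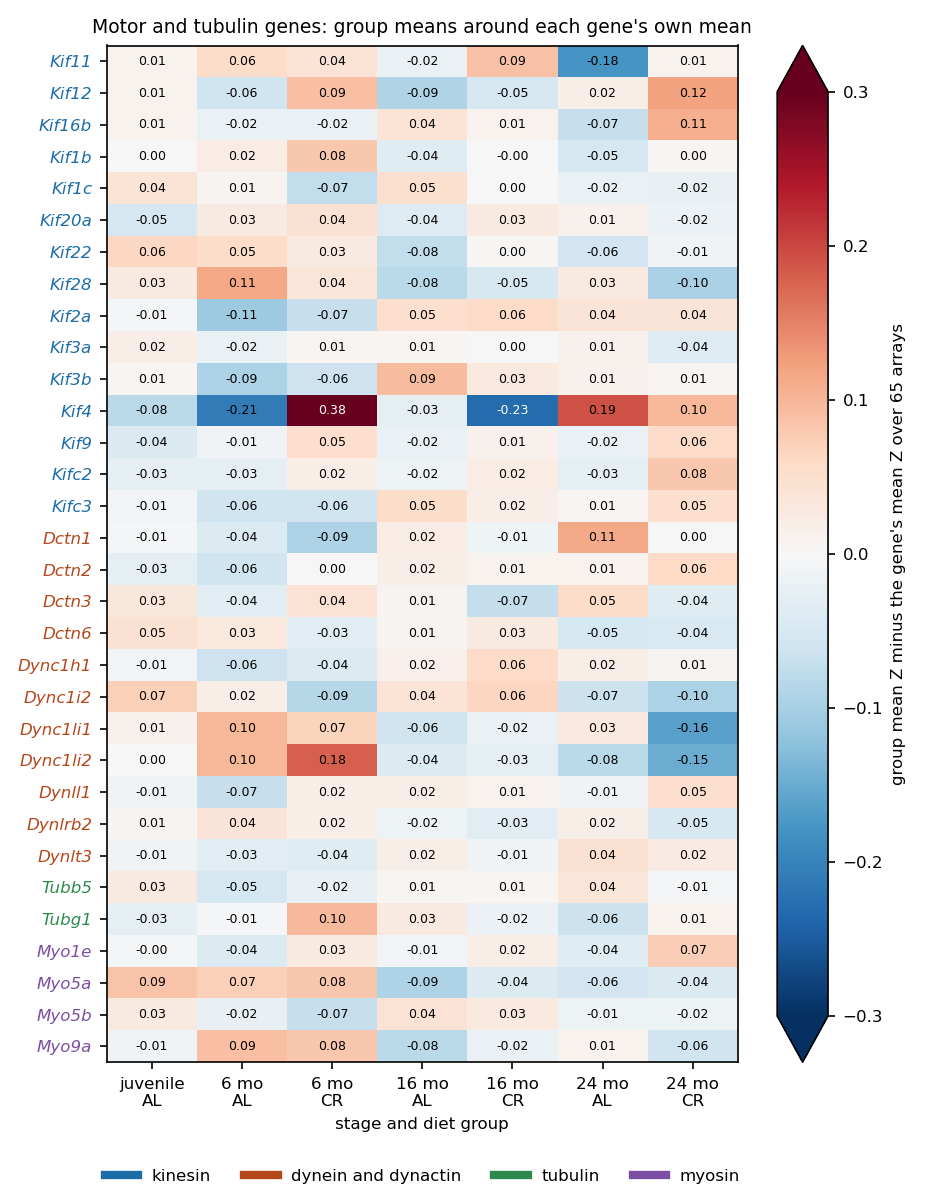
Mean Z score of each of the 32 genes in the 7 stage and diet groups, minus the mean of that gene over all 65 arrays; rows are genes, coloured by family, and the colour scale ends at 0.3 in either direction. Most cells lie within 0.1 of the gene's own mean, and Kif4 spans the widest range, with group means from -2.46 to -1.85 on the original scale.

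The range of the 7 group means of a gene was between 0.06, for Kif3a (the average of 3 features), and 0.61, for Kif4. Among the 32 genes, fitted differences lay between -0.132 and 0.094 from juvenile to 6 months, between -0.233 and 0.404 from 6 to 24 months under AL, and between -0.0668 and 0.111 for CR against AL over the 3 ages. The last comparison was the most precise, with a median SE of 0.0409: the 95% interval lay within 0.2 on either side of 0 for 28 of the 32 genes. From 6 to 24 months under AL the median SE was 0.0666, and 15 of 32 intervals lay within those bounds. The median difference of the members was -0.0325 from juvenile to 6 months (all rows, -0.003), -0.0045 from 6 to 24 months under AL (all rows, -0.003) and 0.0132 for CR against AL over the 3 ages (all rows, -0.00117).

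**Figure D2:**
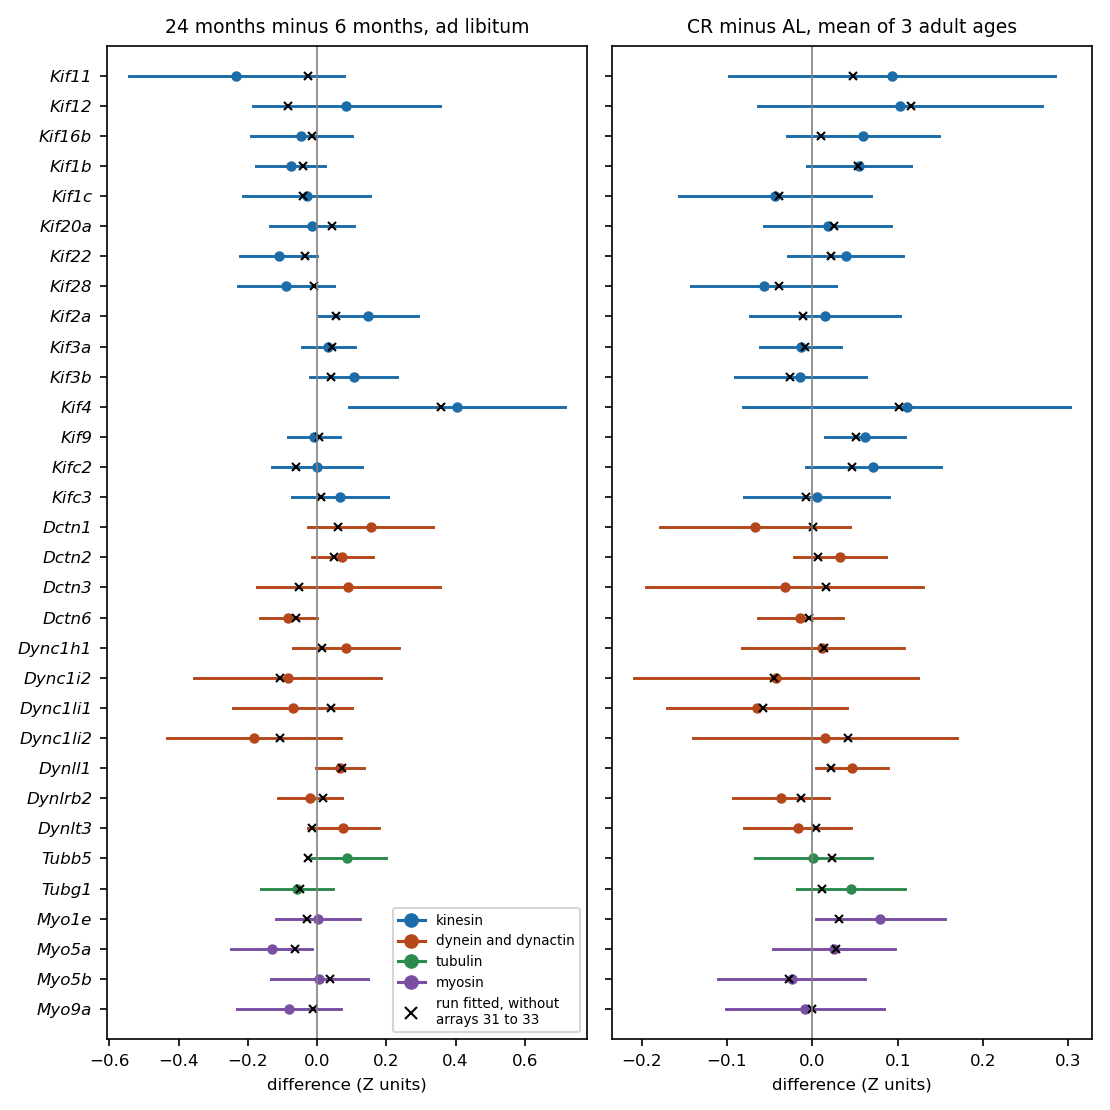
Fitted difference in Z units (dot) with its 95% interval (line) for each of the 32 genes, from 6 to 24 months under AL on the left and for CR against AL averaged over 3 ages on the right; crosses are the estimates without arrays 31 to 33 when run is a covariate. Kif4 has the widest displacement on the left, 0.404, and in both panels most intervals include 0.

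Among the kinesins, the widest differences were those of Kif4, a chromokinesin that works on chromosome arms and the spindle midzone of dividing cells. In AL mice of 6 months its Z score had a lowest value of -3.26, a median of -2.44 and a highest value of -1.62. In CR mice of 6 months the lowest, median and highest were -2.49, -1.93 and -1.22. The CR mice thus reached higher, 7 of 8 lying above the AL mean, while the ranges overlapped over most of their length. The fitted difference was 0.613 (SE 0.168, 95% interval 0.276 to 0.95), the smallest p among the members in any comparison, with a limma adjusted p of 0.554. Without arrays 31 to 33 it was 0.496 and with run as a covariate 0.52 (adjusted p = 1.0 in both). Within the first run it was 0.554, over 8 AL and 6 CR mice.

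Kif4 was also the member with the smallest p from 6 to 24 months under AL. The AL mice of 24 months ranged from -2.49 through a median of -2.04 to -1.58, and 9 of 10 lay above the mean at 6 months. The fitted difference was 0.404 (SE 0.156, interval 0.0921 to 0.716, limma adjusted p = 0.337). With run as a covariate it was 0.358, within the first run 0.371, and within the second 0.147, where 1 mouse of 6 months stood against 6 of 24 months. Under CR the step from 6 to 24 months was -0.282, so that the difference between diets in this step was -0.686 (SE 0.241, interval -1.17 to -0.203, limma adjusted p = 0.999). At 16 months the CR mice were lower than the AL mice by 0.208 (interval -0.52 to 0.104, adjusted p = 1.0). The Z score of Kif4 was far below the mean of the arrays in every group, and its residual SD, 0.357, was above that of 93.5% of rows.

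The group means of the other mitotic kinesins spanned narrower ranges than those of Kif4. Kif11, which slides spindle poles apart, had group means between -0.327 (AL, 24 months) and -0.061 (CR, 16 months). Its residual SD was 0.356, also above that of 93.5% of rows. Its step from 6 to 24 months under AL was -0.233 (interval -0.544 to 0.078), but -0.0261 with run as a covariate. Kif20a, a kinesin of cytokinesis, was 0.064 higher in CR than in AL mice at 16 months (interval -0.0571 to 0.185, limma adjusted p = 1.0), with 7 of 10 CR mice above the AL mean.

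Kif22, another chromokinesin, ran from 0.21 through a median of 0.435 to 0.77 in AL mice of 6 months, from 0.11 through 0.315 to 0.47 at 16 months and from 0.05 through 0.35 to 0.46 at 24 months. Of the older mice, 9 of 10 at each age lay below the mean of 6 months, and the ranges overlapped. The difference from 6 to 24 months was -0.111 (interval -0.221 to -0.00133, limma adjusted p = 0.379), and -0.0339 with run as a covariate. In CR mice of 16 months the score was 0.078 higher than in AL mice (adjusted p = 1.0). Kif22 had the smallest p of the members for sex, with adult males 0.072 higher than females (interval 0.00466 to 0.139, limma adjusted p = 0.991) and 21 of 26 males above the female mean, but the difference was 0.0379 with run as a covariate.

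Among the kinesins of interphase transport, Kif3b is a motor subunit of the heterotrimeric kinesin that serves cilia and axonal cargo. In AL mice it ranged from -0.35 through a median of 0.525 to 0.67 at 6 months and from 0.42 through 0.625 to 0.78 at 16 months. The value of -0.35 was that of array 33, and without it the lowest was 0.37. The difference from 6 to 16 months was 0.188 (SE 0.0626, interval 0.0624 to 0.314, limma adjusted p = 0.315), the smallest p of that comparison. It was 0.103 without arrays 31 to 33, and 0.123 and 0.113 within the runs. Between juveniles and 6 months Kif3b was 0.1 lower (adjusted p = 0.984), and 0.0152 lower without those arrays.

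Kif28 had a lowest, median and highest Z score of 0.63, 0.745 and 1.46 in AL mice of 6 months and of 0.45, 0.63 and 0.8 at 16 months. All 10 mice of 16 months lay below the mean of 6 months, and the ranges overlapped between 0.63 and 0.8. The difference was -0.196 (SE 0.069, interval -0.334 to -0.0576, limma adjusted p = 0.338), and -0.124 without arrays 31 to 33. From 16 to 24 months the score was 0.107 higher (interval -0.0314 to 0.245, adjusted p = 0.956), in 9 of 10 mice, and from juvenile to 6 months 0.089 higher (interval -0.0494 to 0.227), or 0.0175 without arrays 31 to 33.

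Kif2a, which takes tubulin off microtubule ends and limits axon branching, ranged from -1.19 through a median of -0.155 to -0.07 in AL mice of 6 months, from -0.18 through -0.08 to -0.02 at 16 months and from -0.31 through -0.085 to 0.04 at 24 months. The value of -1.19 was again that of array 33. The differences of 0.161 from 6 to 16 months (limma adjusted p = 0.356) and 0.148 from 6 to 24 months (interval 0.00441 to 0.292, adjusted p = 0.371) were 0.0575 and 0.0445 without arrays 31 to 33. The difference of -0.105 from juvenile to 6 months was -0.0015 without them.

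Kif9, a kinesin of motile cilia, had the smallest p of the members for CR against AL over the 3 ages. Its lowest, median and highest scores were 0.28, 0.355 and 0.49 in AL and 0.27, 0.42 and 0.55 in CR mice of 6 months. At 16 months they were 0.23, 0.345 and 0.45 in AL and 0.33, 0.375 and 0.49 in CR mice, and at 24 months 0.24, 0.32 and 0.49 against 0.29, 0.45 and 0.64. At each age the CR median lay above the AL median and the ranges overlapped. The difference was 0.0615 (SE 0.023, interval 0.0154 to 0.108, limma adjusted p = 0.432), with 17 of 25 CR mice above the mean of the AL adults. It was 0.0517 with run as a covariate and 0.00121 when each array was centred on 22 positions along the feature number, in which mean signal repeats. Within the first run it was 0.0678. Within the second run, which held no CR mouse of 6 months, it was 0.00917 over 16 and 24 months only. At 24 months alone it was 0.0874 (interval 0.00429 to 0.171, adjusted p = 0.636), and -0.0142 after that centring.

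Kifc2, a minus-end-directed kinesin of neurons, was 0.0716 higher under CR over the 3 ages (interval -0.00743 to 0.151, limma adjusted p = 0.5), with 21 of 25 CR mice above the AL mean. Its AL mice of 6 months held a value of 0.11 from array 33 beside a median of 0.865, and the difference was 0.0497 without arrays 31 to 33. Kif1b, a motor of synaptic vesicle precursors and mitochondria, was 0.0546 higher (interval -0.00648 to 0.116, adjusted p = 0.505) in 17 of 25 mice, with 0.0834 within the first run and -0.0329 within the second. Kif16b, which moves early endosomes, was 0.181 higher in CR than in AL mice of 24 months (SE 0.0801, interval 0.0201 to 0.341, limma adjusted p = 0.636). Its CR mice of 24 months ranged from 1.26 through a median of 1.5 to 1.73 and its AL mice from 1.04 through 1.33 to 1.6, so that the ranges overlapped although 6 of 7 CR mice lay above the AL mean. Run as a covariate gave 0.144. The difference between diets in the step from 6 to 24 months was 0.159 for Kif16b (interval -0.0651 to 0.383, adjusted p = 0.999).

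Kif3a, partner of Kif3b in the heterotrimeric motor, was the average of 3 features. In the first run these went together little or not at all, with r of 0.243, 0.000727 and -0.0152. The average had the narrowest range of group means of the members, from 0.568 (CR, 24 months) to 0.628 (juvenile). The ranges of the single features are not given here, so the narrow range is that of the average only. From 6 to 24 months under AL the difference of this average was 0.033 (interval -0.0441 to 0.11), and for CR over the 3 ages it was -0.0136 (interval -0.061 to 0.0337). The remaining kinesins, Kif1c, Kif12 and Kifc3, a minus-end-directed motor of Golgi and cell junctions, were not among the smallest p of any comparison. The ranges of their group means were 0.122, 0.21 and 0.114. Over the family, 6 kinesins had a positive and 8 a negative difference from 6 to 24 months under AL, with a median of -0.009, and 1, Kifc2, a difference of 0. For CR over the 3 ages 11 were positive and 4 negative, with a median of 0.0389.

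**Figure D3:**
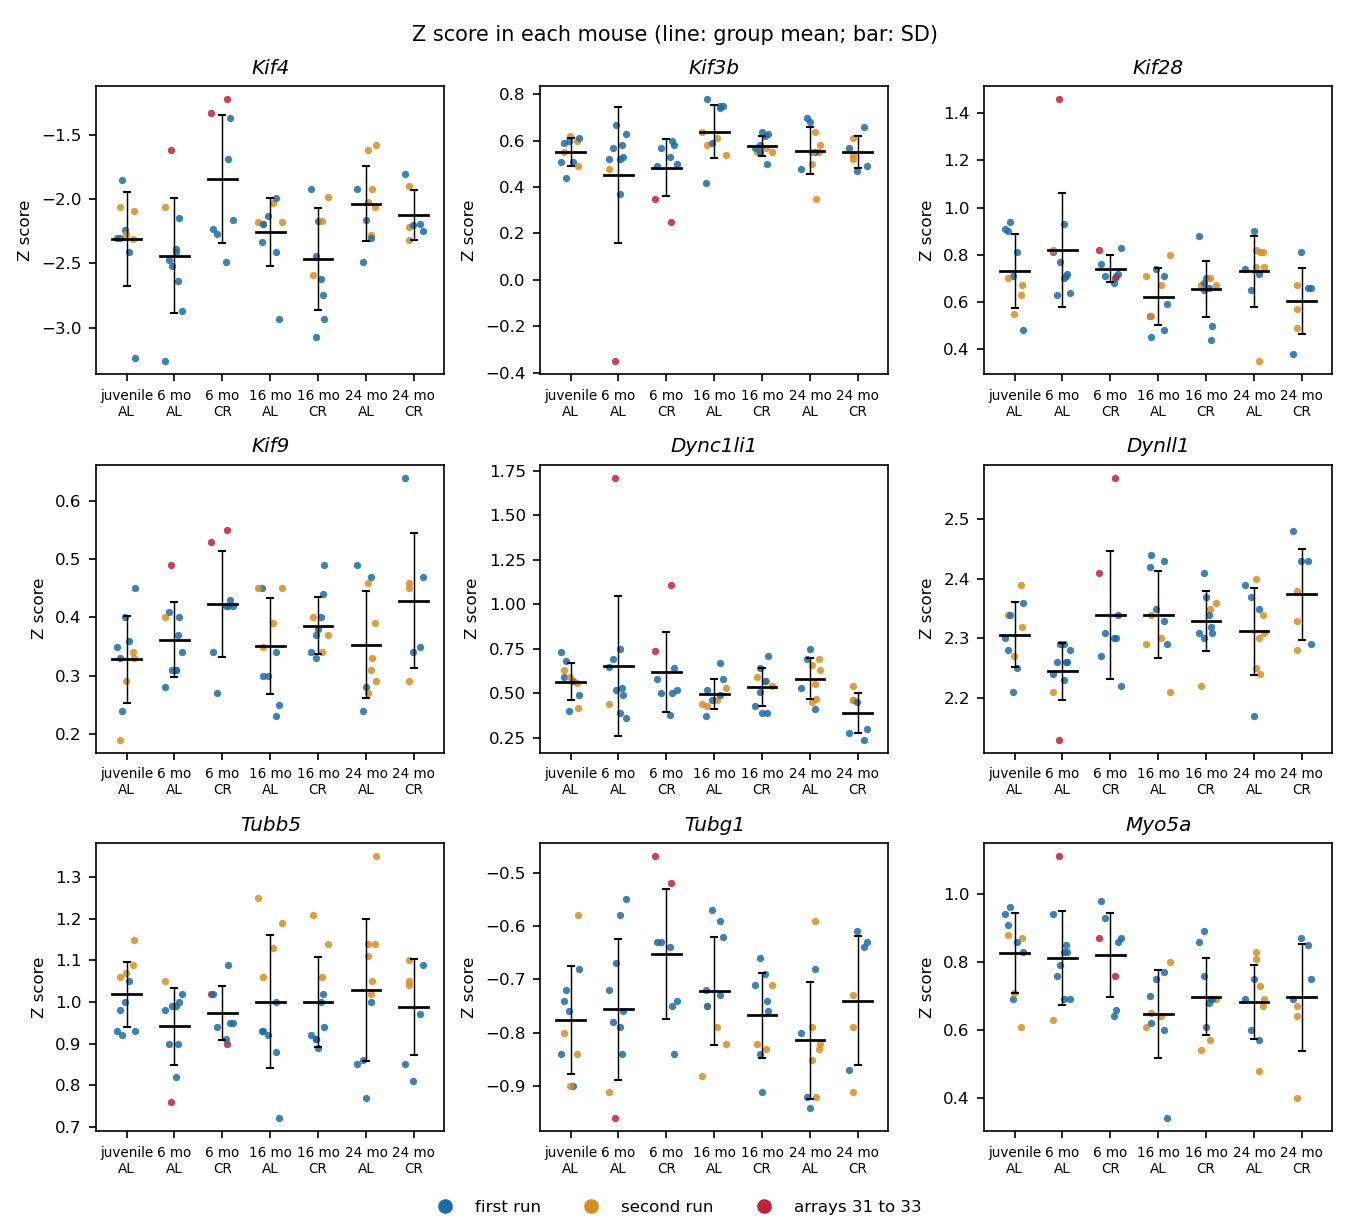
Z score of 9 members in each of the 65 mice, by stage and diet group; black lines are group means, bars 1 SD, and the colour gives the first run, the second run or arrays 31 to 33. Array 33 lies far from the other AL mice of 6 months for Kif3b (-0.35), Kif28 (1.46) and Dync1li1 (1.71), and the second run lies above most of the first for Tubb5.

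In dynein, the light intermediate chains Dync1li1 and Dync1li2, which link the motor to cargo adaptors, had the smallest p from 6 to 24 months under CR. Dync1li1 ranged from 0.38 through a median of 0.55 to 1.11 in CR mice of 6 months and from 0.24 through 0.45 to 0.54 at 24 months. All 7 mice of 24 months lay below the mean of 6 months, and the ranges overlapped from 0.38 to 0.54. The difference was -0.234 (SE 0.101, interval -0.437 to -0.0308, limma adjusted p = 0.505), and -0.14 without arrays 31 and 32, which are among the 8 mice of 6 months. Within the first run, 6 against 4 mice, it was -0.203.

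At 24 months the Dync1li1 score of CR mice also stood under that of AL mice, which ranged from 0.41 through a median of 0.59 to 0.75. All 7 CR mice lay below the AL mean. The difference was -0.198 (SE 0.095, interval -0.389 to -0.00796, limma adjusted p = 0.636). No array from 31 to 33 is in these groups, and in the fit that leaves them out and holds run as a covariate the difference was -0.197, with a limma adjusted p of 0.0948. Within the first run it was -0.277 and within the second -0.0883. Over the 3 ages the difference was -0.0647 (interval -0.17 to 0.0408, adjusted p = 0.659), with 18 of 25 CR mice below the AL mean. It was -0.027 without array 33 and -0.0581 without arrays 31 to 33. The difference between diets in the step from 6 to 24 months was -0.164 (adjusted p = 0.999).

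Dync1li2 ranged from -1.43 through a median of -1.08 to -0.73 in CR mice of 6 months and from -1.74 through -1.26 to -1.23 at 24 months. All 7 of the older mice lay below the mean of the younger, with overlap between -1.43 and -1.23. The difference was -0.324 (SE 0.148, interval -0.621 to -0.0274, limma adjusted p = 0.514). It was -0.25 without arrays 31 to 33 and -0.288 with run as a covariate. Under AL the same step was -0.183 (interval -0.434 to 0.068), with 1 mouse of 24 months at -2.55.

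Dynll1, the small light chain that dynein shares with many other complexes, varied little between mice, with a residual SD of 0.0713 that was above that of 1.0% of rows. Its lowest, median and highest scores under AL were 2.21, 2.31 and 2.39 in juveniles, 2.13, 2.26 and 2.29 at 6 months, 2.21, 2.33 and 2.44 at 16 months and 2.17, 2.33 and 2.4 at 24 months. The AL mice of 6 months were the lowest group, and all groups overlapped. From 6 to 16 months the difference was 0.095 (SE 0.0343, interval 0.0262 to 0.164, limma adjusted p = 0.338), in 9 of 10 mice above the mean of 6 months. It was 0.092 with run as a covariate, 0.113 and 0.075 within the runs and 0.0375 after centring on the 22 positions. From juvenile to 6 months it was -0.061 (interval -0.13 to 0.00782, adjusted p = 0.984), with all 10 mice below the juvenile mean, and from 6 to 24 months 0.067 (adjusted p = 0.395).

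Under CR the lowest, median and highest scores of Dynll1 were 2.22, 2.3 and 2.57 at 6 months, 2.22, 2.33 and 2.41 at 16 months and 2.28, 2.38 and 2.48 at 24 months. Over the 3 ages CR mice were 0.0469 higher than AL mice (SE 0.0211, interval 0.00459 to 0.0891, limma adjusted p = 0.457), 20 of 25 lying above the AL mean. The difference at 6 months, 0.0923 (interval 0.018 to 0.167, adjusted p = 0.574), was 0.0307 without arrays 31 to 33, and that over the 3 ages was 0.0263. Within the first run the difference over the 3 ages was 0.0247. Within the second run, which held no CR mouse of 6 months, it was 0.0242 over 16 and 24 months only.

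Of the other dynein chains, Dynlrb2, a light chain of the roadblock type, differed by -0.0369 under CR over the 3 ages (interval -0.0933 to 0.0194, limma adjusted p = 0.638), and by -0.0138 without arrays 31 to 33. Dync1h1, the heavy chain that holds the motor domain, differed by -0.0728 between adult males and females (males minus females, interval -0.168 to 0.0221, adjusted p = 0.991), and by -0.0245 without those arrays. Array 33 gave it -0.19 beside a median of 0.665 in AL mice of 6 months. Dync1i2, an intermediate chain that binds dynactin, had group means from 0.834 (CR, 24 months) to 1.0 (juvenile), and from 6 to 24 months under AL a difference of -0.0845 (interval -0.355 to 0.186). Array 33 gave it -0.455. The mean of the AL mice of 6 months was 0.949 with that array and 1.1 without it, against 0.864 at 24 months. Without arrays 31 to 33 the step from 6 to 24 months had an unadjusted limma p under 0.05 for 5 members, against 18.2% of rows. These were Dctn1, Dync1i2, Kif11, Kif1c and Kif4. With run as a covariate Dync1i2 did not pass, and 2 members did, Dynll1 and Kif4, against 3.74% of rows. Dynlt3, a light chain of the Tctex type, had group means within a range of 0.0803.

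Dynactin was measured through 4 subunits. Dctn1, the large subunit that holds dynein and microtubules, was 0.155 higher at 24 than at 6 months under AL (interval -0.0257 to 0.336, limma adjusted p = 0.444), and 0.0601 higher with run as a covariate. Its mean in AL mice of 6 months was -0.48 with array 33 and -0.549 without it, against -0.325 at 24 months. Dctn6, a small subunit of the pointed end, ranged from 0.01 through a median of 0.06 to 0.2 in AL mice of 6 months and from -0.27 through 0.015 to 0.22 at 24 months. Of the older mice 9 of 10 lay below the mean of 6 months, while the younger range lay inside the older one. The difference was -0.083 (SE 0.0408, interval -0.165 to -0.00128, adjusted p = 0.378), and -0.0606 with run as a covariate. From 16 to 24 months it was -0.059 (adjusted p = 0.956). Without 1 AL female of 24 months these were -0.0537 and -0.0297. Dctn2, or dynamitin, differed by -0.033 from juvenile to 6 months (interval -0.121 to 0.0547, adjusted p = 0.984) with array 33, at 1.86 beside 2.28 to 2.41 in the other AL mice of 6 months, and by 0.0158 without arrays 31 to 33. Dctn3, the smallest of the shoulder subunits, had group means from -0.108 to 0.018. Over dynein and dynactin 6 genes had a positive and 5 a negative difference from 6 to 24 months under AL, with a median of 0.067, and 4 and 7 for CR over the 3 ages, with a median of -0.0172.

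Both tubulins were measured through a single feature each. Tubb5, a beta tubulin abundant in developing neurons and dividing cells, had group means from 0.941 (AL, 6 months) to 1.03 (AL, 24 months). Its lowest, median and highest scores under AL were 0.92, 1.02 and 1.15 in juveniles, 0.76, 0.985 and 1.05 at 6 months, 0.72, 0.965 and 1.25 at 16 months and 0.77, 1.04 and 1.35 at 24 months. The groups overlapped over most of their length. The difference was -0.077 from juvenile to 6 months (interval -0.188 to 0.0341, limma adjusted p = 0.984), with 8 of 10 mice below the juvenile mean. From 6 to 24 months it was 0.088 (interval -0.0231 to 0.199, adjusted p = 0.476), and -0.0249 with run as a covariate. CR mice differed from AL mice by 0.00119 over the 3 ages (interval -0.067 to 0.0694, adjusted p = 0.991).

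Tubg1, the gamma tubulin that nucleates microtubules at centrosomes, ranged from -0.96 through a median of -0.77 to -0.55 in AL mice of 6 months and from -0.84 through -0.635 to -0.47 in CR mice. The CR mice were 0.111 higher (interval -0.000564 to 0.222, limma adjusted p = 0.646), 7 of 8 above the AL mean, but 0.0315 higher without arrays 31 to 33 and 0.00625 within the first run. From 16 to 24 months under AL the difference was -0.092 (interval -0.195 to 0.011, adjusted p = 0.956). From juvenile to 6 months, from 6 to 24 months under AL and for CR over the 3 ages it was 0.02, -0.058 and 0.0456, each with an interval that includes 0.

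Among the myosins, Myo5a, which carries vesicles and endoplasmic reticulum into dendritic spines, had the smallest p from 6 to 16 and from 6 to 24 months under AL. Its lowest, median and highest scores under AL were 0.61, 0.865 and 0.96 in juveniles, 0.63, 0.81 and 1.11 at 6 months, 0.34, 0.645 and 0.8 at 16 months and 0.48, 0.69 and 0.83 at 24 months. All 10 mice of 16 months and 9 of 10 of 24 months lay below the mean of 6 months, and the ranges overlapped. The difference from 6 to 16 months was -0.164 (SE 0.0583, interval -0.281 to -0.0472, limma adjusted p = 0.338), and from 6 to 24 months -0.13 (interval -0.247 to -0.0132, adjusted p = 0.343). Without arrays 31 to 33 these were -0.131 and -0.0968, and with run as a covariate -0.11 and -0.0622. Within the first run they were -0.167 and -0.145. Within the second run, where 1 mouse of 6 months stood on the younger side, they were 0.045 and 0.0717. From 6 to 24 months under CR the difference was -0.128 (interval -0.266 to 0.0104, adjusted p = 0.594), and CR mice were 0.0257 above AL mice over the 3 ages (adjusted p = 0.824).

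Myo1e, a single-headed myosin that joins membrane to actin, was 0.0796 higher under CR over the 3 ages (SE 0.0374, interval 0.00462 to 0.155, limma adjusted p = 0.465), with 18 of 25 CR mice above the AL mean. Array 33 gave it 0.24 beside 0.77 to 0.92 in the other AL mice of 6 months, and the difference was 0.0396 without arrays 31 to 33 and 0.031 with run as a covariate. From juvenile to 6 months it was -0.036 (adjusted p = 0.984). Myo9a differed by -0.162 from 6 to 16 months (interval -0.312 to -0.0116, adjusted p = 0.358), and by -0.0678 without arrays 31 to 33, of which array 33 stood at 2.13 beside 1.1 to 1.27. From juvenile to 6 months it was 0.093 higher (interval -0.0574 to 0.243), or -0.00125 without them, and from 6 to 24 months under AL the difference was -0.082 (adjusted p = 0.626). Myo5b, a motor of recycling endosomes, differed by -0.0485, 0.0065 and -0.0241 from juvenile to 6 months, from 6 to 24 months and for CR over the 3 ages, each with an interval that includes 0.

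In the F test over the 7 groups the smallest p-values among the members were those of Kif4 (limma adjusted p = 0.41), Myo5a (0.483) and Dynll1 (0.552).

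The runs set the members further apart than age or diet did for some genes. Since the runs were found from the same values, the differences between them are a description. With group held constant the second run minus the first was over 0.2 in size for 6 of the 32 members, against 18.6% of all rows. Kif11 ranged from -0.18 to 0.25 among arrays of the first run and between -1.0 and -0.3 among those of the second, with no overlap. Dctn3 ranged from -0.44 to -0.04 and from 0.07 to 0.51, again with no overlap, and Dctn1 from -0.89 to -0.39 and from -0.36 to -0.03. The fitted differences were -0.6, 0.494 and 0.334 for these genes, 0.362 for Kif12, -0.27 for Dync1i2 and 0.24 for Kif4. Of the members 11 were higher and 21 lower in the second run, and the median size of the difference was 0.0644, against 0.067 over all rows. For 14 of the 32 genes the run difference was larger in size than the difference from 6 to 24 months under AL. The shares of all rows for this count and for runs without overlap are not given here. The median size of the members' difference was 0.079 from 6 to 24 months under AL and 0.0379 for CR over the 3 ages. These age and diet differences came from all arrays, with no run term. The run differences came from a fit without arrays 31 to 33, with group held constant. Because arrays and fits differ, the medians and the count of 14 genes do not rank run against age or diet over the members.

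**Figure D4:**
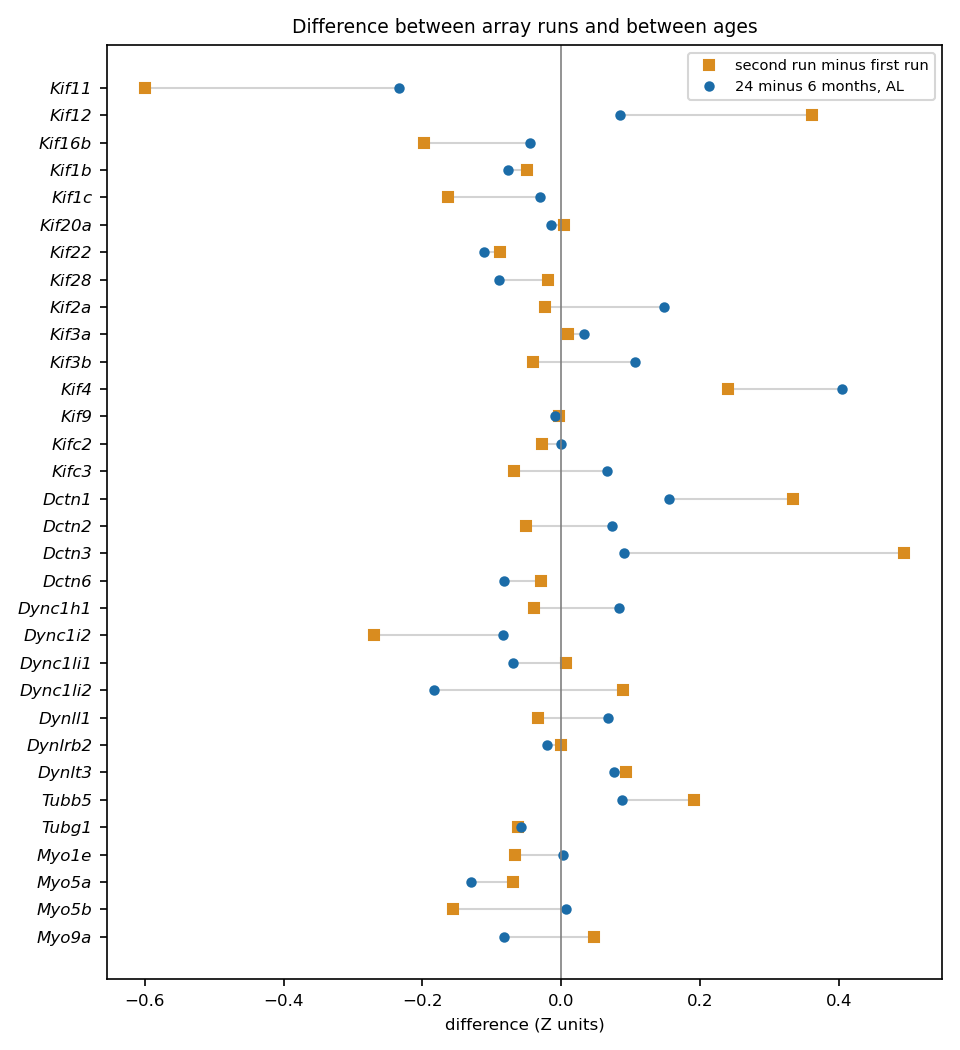
Difference between the second and the first array run (squares, group held constant, without arrays 31 to 33) beside the difference from 6 to 24 months under AL (dots, all arrays) for each of the 32 genes, in Z units. For Kif11, Dctn3, Kif12 and Dctn1 the square lies further from 0 than the dot, on the same side.

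When limma weighted the arrays by their own spread, 7 members were called from 6 to 24 months under AL, where 22.2% of all rows were. The weighted differences were 0.461 for Kif4, 0.349 for Dctn3, 0.329 for Dctn1, -0.149 for Kif16b, -0.182 for Kif1c, -0.295 for Dync1i2 and -0.453 for Kif11. All 7 had the sign of that gene's difference between runs, and the groups of 6 and 24 months hold different shares of the runs. The part of the runs in these calls was not tested.

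For 3 members several features could be compared within a gene, after the mean of each stage and diet group was removed, over 41 mice of the first run and 20 of the second (1 mouse that was alone in its group left out), 10 relations in all with p-values from 100000 permutations. The features of Dync1i2 went together most closely, with Pearson's r = 0.789 and a Spearman coefficient of 0.686 in the first run (permutation adjusted p = 0.0001 for both, from the smallest p the permutations can give). In the second run r was 0.46 and the Spearman coefficient 0.433 (permutation adjusted p = 0.0842 and 0.117). Without the 2 mice farthest from the median r was 0.674 and 0.567.

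For the 3 features of Kif3a in the first run r was 0.243 for features 10745 and 10823 (Spearman 0.252, permutation adjusted p = 0.208 and 0.185 for Pearson and Spearman), 0.000727 for 10745 and 12744 (Spearman 0.0156, 0.996 and 0.923) and -0.0152 for 10823 and 12744 (Spearman 0.0335, 0.996 and 0.923). In the second run these were 0.243 (Spearman 0.229, permutation adjusted p = 0.377 and 0.411), 0.638 (Spearman 0.598, 0.015 and 0.0255) and 0.573 (Spearman 0.574, 0.0269 and 0.0255). Without the 2 farthest mice they were 0.166, -0.0245 and 0.0248 in the first run and 0.132, 0.594 and 0.582 in the second. The Myo5b features had r = 0.197 (Spearman 0.217, permutation adjusted p = 0.309 and 0.242) in the first run and 0.487 (Spearman 0.567, 0.0674 and 0.0255) in the second, and 0.24 and 0.422 without the 2 farthest mice. The residual SD of the gene average was 0.0817 for Kif3a, above that of 3.4% of rows, but 0.157 for Myo5b and 0.309 for Dync1i2, above that of 56.3% and 91.1%.

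**Figure D5:**
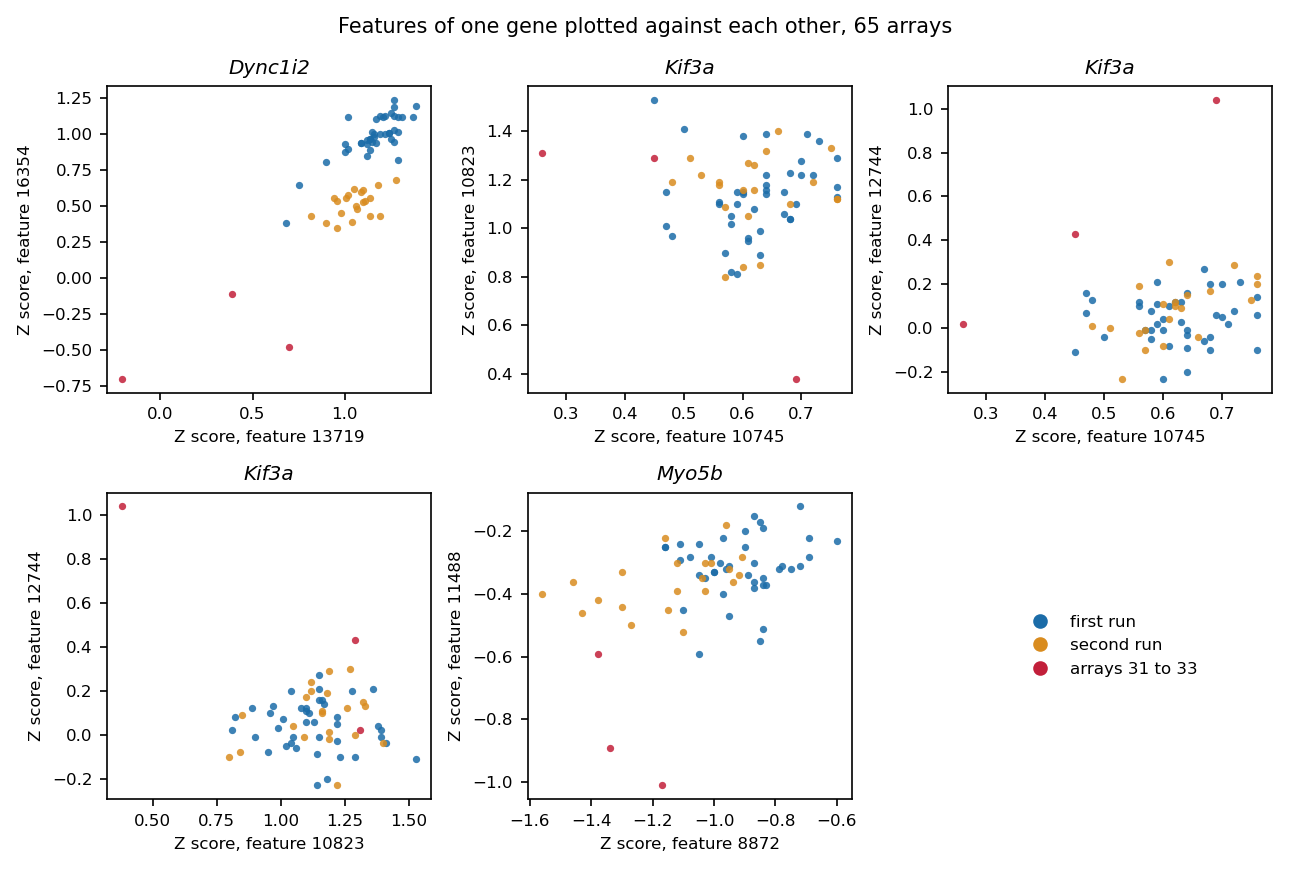
Z scores of the features of Dync1i2, Kif3a and Myo5b plotted against each other, 1 point per mouse (65), coloured by run. The Dync1i2 features share an upward trend within the first run (r = 0.789) and sit lower in the second run for feature 16354, and arrays 31 to 33 lie away from the rest in several panels.

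Other cytoskeletal genes, from lists outside the rule, gave no call either. Of 29 measured regulators of microtubules and motor adaptors (of 77 listed, among them stathmin, Nde1, Ndel1, Spast and Htt) 0 were called in any of the comparisons between groups given here, and from 6 to 24 months under AL 16 were positive and 13 negative, with a median of 0.014. For CR over the 3 ages 15 were positive and 14 negative, with a median of 0.00128. Of 24 measured genes of actin filaments, myosin light chains and their regulators (of 66) 0 were called, with medians of 0.0362 and -0.0196 in these comparisons, the first of which was -0.00692 with run as a covariate. Of 3 intermediate filament genes of neurons and glia (Nefl, Vim and Plec, of 13 listed) and of the tubulin Tubd1 and the axonemal dynein Dnah1 (of 21 listed) 0 were called, with medians of 0.007 and 0.0201, and of -0.0305 and 0.0102. The intermediate filament median from 6 to 24 months was -0.0379 with run as a covariate.

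Markers of the cell types that the cord could hold were few on the array. Of the neuron list 3 of 17 were measured (Nefl, Uchl1 and Slc17a6), and their mean Z per mouse lay between -0.215 and 0.568 in AL mice of 6 months, and between 0.172 and 0.642 at 24 months. Of the microglia and macrophage list 5 of 15 were measured, and 2, C1qa and Ctsd, were called from 6 to 24 months under AL. The mean Z of all 5 measured markers per mouse lay between -0.313 and 0.193 at 6 months under AL. At 24 months it lay between 0.215 and 0.311 under AL, with no overlap, and between 0.088 and 0.369 under CR. The share of all rows with such groups is not given here. Of the 5 differences from 6 to 24 months under AL, 4 were positive and 1 negative. For 5 of 12 astrocyte markers the ranges were -0.444 to 0.26 at 6 months and 0.003 to 0.248 at 24 months under AL, with all 5 differences positive. The median difference from 6 to 24 months was 0.139 for the astrocyte and 0.165 for the microglia markers, and 0.0111 and 0.0655 with run as a covariate. The part of any change in glial cells in the differences of the motor genes was not tested.

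Of the lists for other cells, 1 of 15 oligodendrocyte and myelin genes was measured (Gsn), with a mean of 0.473 in juveniles and 0.149 in AL mice of 6 months. The latter ranged from -0.76 to 0.44. The difference was -0.324, and -0.219 with run as a covariate. Of 19 genes of proliferating cells 6 were measured (Top2a, Ccnb2, Ccna2, Bub1, Mcm2 and Mcm6), and their mean Z per mouse ran from -0.371 to -0.181 in AL mice and from -0.244 to -0.148 in CR mice of 6 months, the groups between which Kif4 differed by 0.613. The median difference of these 6 genes between those groups was 0.0475, and 0.0117 with run as a covariate. Skeletal muscle (2 of 16, Mylpf and Casq1) ran from 0.125 to 0.61 and from 0.095 to 0.34 in AL mice of 6 and 24 months, ependyma and cilia (1 further gene, Ccdc153, of 14) from 0.095 to 0.285 and from -0.175 to 0.275, and blood (4 of 8) from -0.49 to 0.296 and from -0.0317 to 0.414. None of these genes was called in a comparison other than the pair from the microglia list.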

How the data were processed

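Values were Z scores per array that the authors deposited: per the study's methods, phosphor screens of the radiolabelled filters were scanned, and feature intensities were turned into Z scores within each array. The deposited scores of the 8448 features average 0 on each array, with an SD of 1. The log base and the background treatment are not given in the sources used here. Precision is set by how many arrays a group holds.

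Gene symbols came from the platform annotation, which can be old. Features of 1 symbol were averaged, which gave 7782 rows. limma 3.58.1 (R 4.3.3) was fitted to the means of 14 groups of stage, diet and sex, with 51 residual degrees of freedom, moderated variances and Benjamini-Hochberg adjustment over all rows. Intervals are at 95%. Arrays are separate mice per the labels. Feature correlations were tested with 100000 permutations (Python 3.11.15, scipy 1.17.1). The fit was also run on simulated scores, drawn independently for each row and array. They held no runs and no outlying arrays, so that test does not cover these features of the data.

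Members and gene lists were chosen with earlier results of these data known. Values were given for every called member, for the 3 smallest p of each family (juvenile to 6 months and 6 to 24 months under AL, and CR over the 3 ages) or of all members (other comparisons), for both tubulins and for genes with several features. Others were named after their values were seen.

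Alternatives were leaving out arrays 31 to 33, run as a covariate, centring on 22 positions, quantile normalization, array weights, rows with a mean Z above 0, features as rows, leaving out each mouse, leaving out an AL male of 24 months whose description differs from its other labels, and the first steps of the study's selection, without its analysis of variance.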

Additional observations from a re-analysis of the deposited data

Results flagged for a closer look

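For the 24 genes named by p, each of the 7 groups of stage and diet was searched for an outlying mouse. By Dixon's criterion its gap to the others had to be large for the range of its group. Such a mouse was found in 31 of 168 group tests (18.5%). The nominal rate is about 1 in 20. It does not apply directly here, because the genes were picked by p in these data and the tests share arrays. Arrays 31 to 33 held 18 of the 31.

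Array 33, an AL male of 6 months, accounted for most. It lay above the other AL mice of 6 months for Dync1li1 (1.71), Kif28 (1.46), Myo9a (2.13), Dctn1 (0.14), Kif22 (0.77), Dync1li2 (-0.07), Kif20a (-0.16) and Dynlrb2 (0.11). It lay below them for Dctn2 (1.86), Dynll1 (2.13), Kif2a (-1.19), Kif3b (-0.35), Myo1e (0.24), Myo5b (-1.11), Kif16b (0.8), Kifc2 (0.11) and Dync1h1 (-0.19). Array 32, a CR female of 6 months, stood at 1.74 for Myo9a.

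Among the arrays outside 31 to 33, 2 mice stood low in AL groups of 16 and 24 months for a pair of genes each: an AL male of 16 months for Myo5a (0.34) and Kif4 (-2.93), and an AL male of 24 months for Myo9a (0.8) and Dync1li2 (-2.55). A CR female of 24 months stood low for Kif22 (0.01) and high for Dync1h1 (0.85). A juvenile female stood at -3.24 for Kif4, and juvenile males at -0.38 for Kif2a and -0.11 for Dctn6. An AL female of 24 months stood at 0.35 for Kif28, a CR female of 16 months at -0.9 for Myo5b, and an AL female of 6 months at -0.71 for Kif1b. The AL male of 24 months whose description differs from its other labels stood at 0.16 for Dync1h1.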

How the results depend on the processing

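The count of 0 members called held under every alternative run except array weights (7 from 6 to 24 months under AL) and the first steps of the study's selection (1 each from 6 to 16 months under AL, from 6 to 24 months under CR and for CR at 24 months). It was 0 to 0 in all fits that left out 1 mouse. No paired analysis was run, because each array is a separate mouse in a single group. The labels give array numbers but no replicate numbers, and the replicate numbers used here only name the mice of a group. Of 386 differences of named genes under the other alternatives, 357 kept their sign and their side of the threshold, 27 changed sign and 2 passed it, Dctn1 (0.329) and Kif4 (0.461) from 6 to 24 months with array weights. The cause was not tested.

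The sign changed without arrays 31 to 33 for Dctn2 (0.0158), Dync1li1 (-0.026), Myo1e (0.028) and Myo9a (-0.00125) from juvenile to 6 months, Myo5b (-0.0415) and Myo9a (0.0123) from 6 to 24 months under AL, and Tubb5 (-0.00119) for CR over the 3 ages. With run as a covariate they were Dctn2 (0.000544), Dync1li1 (-0.024) and Myo1e (0.00793) from juvenile to 6 months and Tubb5 (-0.0249) from 6 to 24 months. With array weights they were Dctn2 (0.0166), Dync1li1 (-0.0329), Kif3b (0.00614), Myo1e (0.0267), Myo5b (0.011) and Myo9a (-0.00361) from juvenile to 6 months, Kif2a (-0.0074), Myo5b (-0.0789) and Myo9a (0.0425) from 6 to 24 months, and Dynlrb2 (0.000964) for CR. Centring on the 22 positions gave -0.011 for Dynll1 from 6 to 24 months, -0.0142 for Kif9 under CR at 24 months and 0.0132 for Myo5b under CR. Single features gave -0.003 (feature 11488, 6 to 24 months) and 0.000361 (feature 8872, CR) for Myo5b, and quantile normalization -0.00377 for Tubb5 under CR.

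Leaving out 1 mouse gave, from juvenile to 6 months, -0.053 to 0.0158 for Dctn2, -0.026 to 0.139 for Dync1li1, -0.06 to 0.028 for Myo1e, -0.00125 to 0.128 for Myo9a and -0.00425 to 0.0433 for Tubg1. From 6 to 24 months under AL it gave -0.0415 to 0.0381 for Myo5b and -0.117 to 0.0122 for Myo9a, and for CR over the 3 ages -0.0107 to 0.0134 for Tubb5. Without a change of sign it gave -0.083 to -0.0297 for Dctn6 from 16 to 24 months and -0.0847 to -0.027 for Dync1li1 for CR over the 3 ages. With both runs together and run means removed, the correlation of features was 0.738 for Dync1i2, 0.251 and 0.189 for Kif3a features 10745 and 12744 and 10823 and 12744, and 0.3 for Myo5b.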
